A study of Arabidopsis thaliana with 4 samples.

Results

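The genes described here are the UDP-glycosyltransferases (UGT) and the beta-glucosidases (BGLU) of Arabidopsis thaliana, enzymes with opposite actions on small molecules. They were chosen by name: the current symbol had to begin with UGT or BGLU followed by a digit, and at least 1 probe set had to be paired with that gene alone. In all, 73 genes qualified, 51 UGT and 22 BGLU, among 16550 genes with a probe set of their own. Of the 58 UGT and 40 BGLU symbols in the reference annotation TAIR10.1, 7 UGT and 18 BGLU had no such probe set and were not analysed here, among them BGLU18 and all of BGLU1 to BGLU11. The expression arrays compared seeds of the mutant wrky43-1, named for the transcription factor gene WRKY43, with seeds of wild-type Ler-0, the accession of the study. Each genotype was represented by 2 biological replicates, and 10 mg of dry seed per sample had spent 4 days with 2 µM abscisic acid (ABA), the hormone that delays germination, in 0.5 MS liquid medium for plant culture. Both genotypes thus carried the same hormone treatment, and no untreated seeds were among the samples. The labels do not describe the lesion of wrky43-1 or say whether seeds of several plants were pooled.

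UDP-glycosyltransferases move a sugar, usually glucose, from a UDP-sugar to a hormone, flavonoid, phenolic acid or foreign compound. The conjugate is more soluble, is often stored in the vacuole and is usually inactive. Beta-glucosidases of glycoside hydrolase family 1, the BGLU genes, cut the sugar off again and free the parent compound. For ABA both directions are known: UGT71B6 and UGT71C5 make the glucose ester of ABA, and BGLU18 and BGLU33 can release the hormone from it. In seeds the same chemistry acts on flavonols, coumarins and glucosinolates, the sulfur-containing defence compounds of the cabbage family.

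The deposited values, read as log2, lay between 1.18 and 14.27, and the array medians were 4.43 and 4.40 in wrky43-1 and 4.34 and 4.34 in Ler-0. Signal over background is unknown, so low values cannot be called expressed or not. Of the seed markers, 4 of 20 were measured, with mean values of 8.95 and 9.01 in wrky43-1 and 9.09 and 9.11 in Ler-0, none of them near the lowest values. Their differences (wrky43-1 minus Ler-0, log2) were -0.50 for M17 and 0.33 for LTI30, late embryogenesis genes past an unadjusted limma p of 0.05, and -0.19 for PAP85, a storage protein gene, and -0.09 for the oleosin gene OLEO3. Of the leaf or seedling markers 3 of 12 were measured, LHCB4.1 (-0.35), RCA (-0.16) and PRK (0.67, with overlap), with means of 7.40 and 7.07 in wrky43-1 and 7.11 and 7.26 in Ler-0. Of the root hair markers 2 of 4 were measured, EXPA7 (-0.21) and EXPA18 (0.18), and of the endosperm markers 0 of 4. The part of these markers in the results below was not tested. WRKY43 itself had 0 probe sets of its own, so its level says nothing about the labels here. Differences below are wrky43-1 minus Ler-0 on the log2 scale, from limma fitted over all 38408 probe sets with Benjamini-Hochberg adjustment and a threshold of 0.05.

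No UGT or BGLU gene passed this threshold (0 of 73), as was the case for nearly the whole array, where 0.0026% of probe sets were called higher and 0% lower. At an unadjusted limma p under 0.05, 6 of the 51 UGT genes read lower in wrky43-1 and 1 read higher. Among all genes with a probe set of their own 6.08% read lower and 5.44% higher at that p, and over all 38408 probe sets 6.93% and 9.05%. Of the 22 BGLU genes 1 read lower and 0 higher. The 6 lower UGT genes were UGT73B1, UGT73B4, UGT73C2, UGT73C6, UGT76D1 and UGT84A3, the higher one was UGT76E1, and the lower BGLU gene was BGLU16. Only UGT73B4 was also past an unadjusted p of 0.01, where 1.41% of named genes read lower and 1.14% higher. Leaving out single arrays changed which genes were counted: without Ler-0 replicate 1 the lower UGT genes were UGT73B4 and UGT73B3, without Ler-0 replicate 2 they were UGT73B4, UGT73C1 and UGT73C2, and UGT73B4 alone was counted whichever array was left out.

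**Figure D1:**
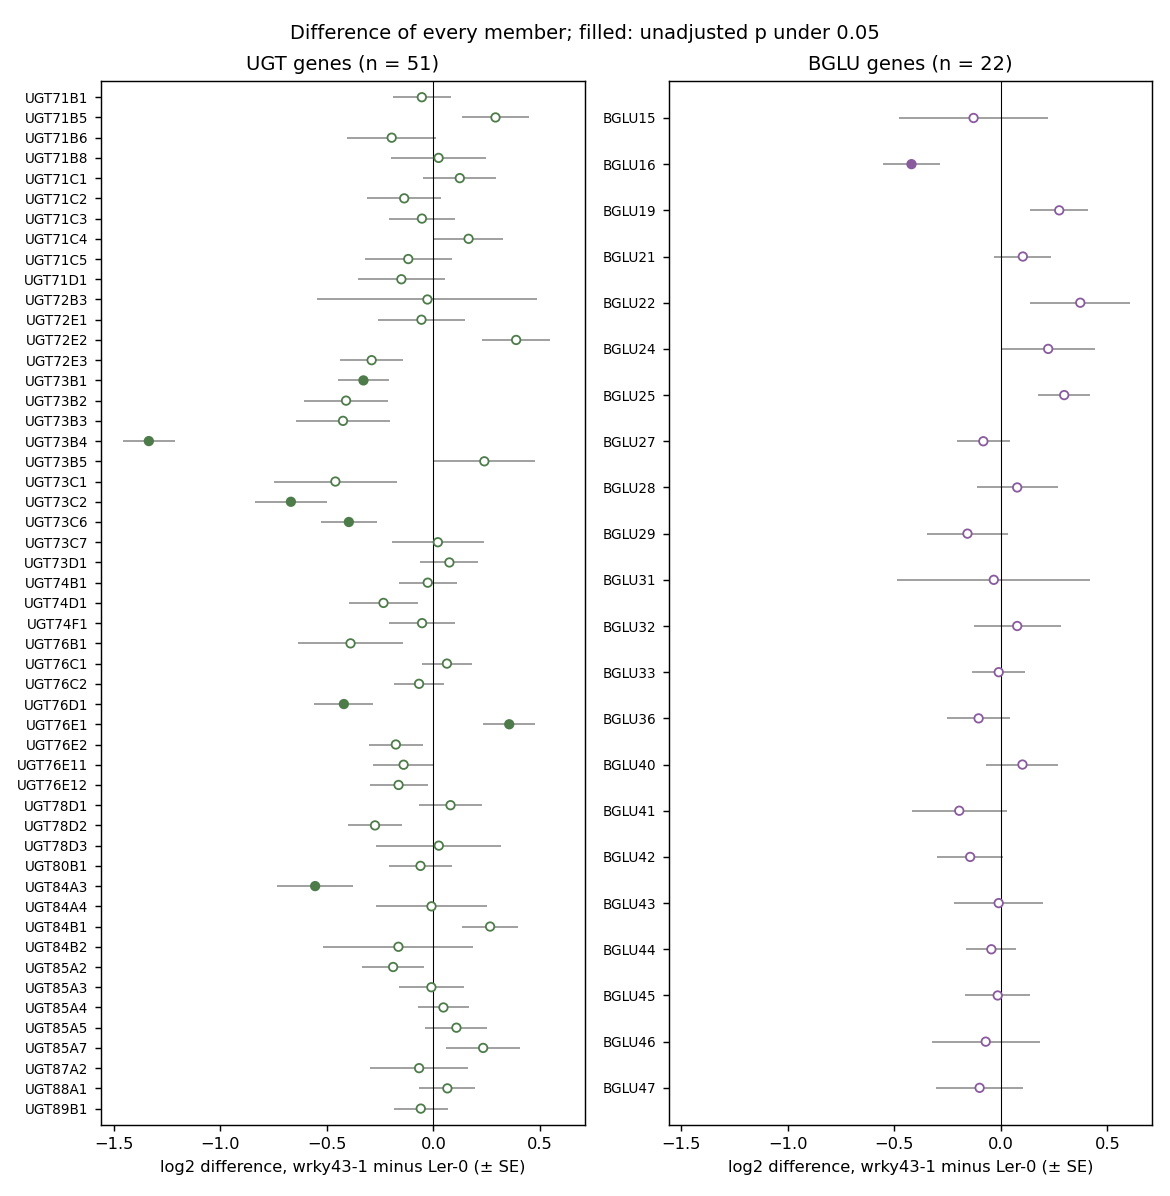
Log2 difference, wrky43-1 minus Ler-0, of each of the 51 UGT genes (left) and 22 BGLU genes (right), with bars of 1 SE from limma and filled points at an unadjusted p under 0.05. UGT73B4 stands apart at -1.34, and the other 72 genes lie between -0.67 and 0.39.

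The UGT73 family gave 4 of the 6 lower UGT genes. Of its 10 measured members 7 had a difference below 0 and 3 above it. With array medians made equal, which lowers the difference of every gene by the same amount, these were 8 and 2. In the values as deposited the median was -0.40, against -0.06 over all 51 UGT genes and -0.01 over all 16550 named genes. In 6 members the arrays of the genotypes did not overlap and wrky43-1 was lower, and in 0 was it higher; over all named genes 25% were lower and 21.7% higher without overlap. Enzymes of this family glucosylate flavonols, brassinosteroids, cytokinins and foreign compounds, and several of the genes respond to pathogens and oxidative stress.

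UGT73B4 (AT2G15490, chromosome 2), known as a pathogen-responsive gene, read 4.37 and 4.45 in wrky43-1, against 5.70 and 5.79 in Ler-0. Replicates of each genotype lay within 0.1 of each other and the genotypes were clearly separate. The log2 difference was -1.34 (SE 0.12, 95% interval -1.66 to -1.01), so that wrky43-1 was 2.52-fold lower, with a limma adjusted p of 0.125. Of all 16550 named genes, 6 had a more negative difference. With all 4 arrays its limma adjusted p ranged from 0.0512 with a variance prior that follows intensity to 0.304 with the replicate number as a block. The difference lay between -1.42 and -1.29 in the 16 alternatives tried. Only scaling, the gene length trend and left-out arrays could move it. The other alternatives leave the difference of a gene with 1 probe set unchanged. Its direct neighbour UGT73B5 (AT2G15480), which also responds to pathogens and salicylic acid, had another sign. It read 4.78 and 4.55 in wrky43-1 and 4.14 and 4.72 in Ler-0, so its genotypes overlapped (difference 0.24, 95% interval -0.41 to 0.88). The difference between the neighbours was not tested.

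The other UGT73B genes, UGT73B1, UGT73B2 and UGT73B3, stand beside each other on chromosome 4. UGT73B1 read 5.56 and 5.51 in wrky43-1 and 5.91 and 5.81 in Ler-0, a difference of -0.33 (SE 0.12, limma adjusted p = 0.306). UGT73B2, a flavonoid glucosyltransferase gene, read 4.12 and 3.69 in wrky43-1 and 4.42 and 4.22 in Ler-0, a difference of -0.41 (SE 0.20). UGT73B3 read 2.16 and 1.96 in wrky43-1 and 2.23 and 2.74 in Ler-0, a difference of -0.42 (SE 0.22) at values close to the lowest of the arrays. All wrky43-1 arrays lay below all Ler-0 arrays for each of these genes, but for UGT73B2 and UGT73B3 the gap was smaller than the distance between replicates.

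A second row of neighbours, on chromosome 2, holds UGT73C1, UGT73C2 and UGT73C6. UGT73C1, whose enzyme can attach glucose to cytokinins, read 3.62 and 3.35 in wrky43-1 and 4.32 and 3.58 in Ler-0, an overlap, with a difference of -0.46 (SE 0.29). UGT73C2 read 1.83 and 2.17 in wrky43-1 and 2.74 and 2.60 in Ler-0, a difference of -0.67 (SE 0.17, limma adjusted p = 0.222) at values close to the lowest of the arrays. UGT73C6, a flavonol 7-O-glucosyltransferase gene, read 4.47 and 4.58 in wrky43-1 and 4.83 and 5.003 in Ler-0, a difference of -0.40 (SE 0.13, limma adjusted p = 0.284). Its other probe set overlapped between genotypes and gave -0.10 (SE 0.19). UGT73C7 and UGT73D1, neighbours on chromosome 3, had differences of 0.02 and 0.07.

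**Figure D2:**
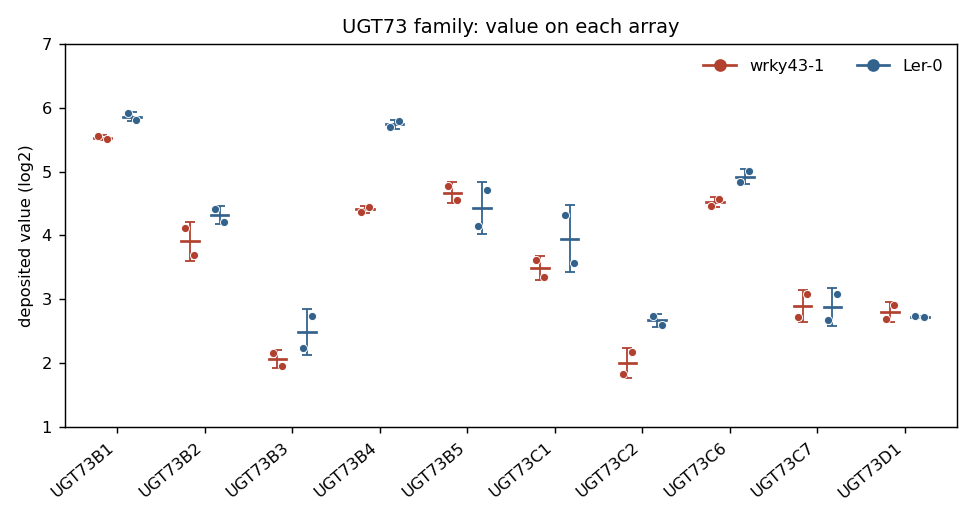
Deposited log2 value of the 10 UGT73 genes on each wrky43-1 array (red, left of each pair) and each Ler-0 array (blue, right), with the mean and SD (n = 2 each). In UGT73B4 the wrky43-1 points lie at 4.37 and 4.45, far below the Ler-0 points at 5.70 and 5.79, while in UGT73B5, UGT73C1, UGT73C7 and UGT73D1 the genotypes overlap.

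Outside the UGT73 family, UGT84A3, UGT76D1 and UGT76E1 were the genes past the unadjusted limit. UGT84A3, whose enzyme makes glucose esters of hydroxycinnamic acids, read 2.26 and 2.63 in wrky43-1 and 3.08 and 2.92 in Ler-0 (difference -0.56, SE 0.18, limma adjusted p = 0.271). Its neighbour UGT84A4, of the same activity, had a difference of -0.01 (SE 0.26). UGT76D1, which glucosylates dihydroxybenzoic acids derived from salicylate, read 2.91 and 2.69 in wrky43-1 and 3.25 and 3.18 in Ler-0 (difference -0.42, SE 0.14, limma adjusted p = 0.279). UGT76E1 was the UGT gene that read higher, with 2.48 and 2.56 in wrky43-1 and 2.22 and 2.12 in Ler-0 (difference 0.36, SE 0.12, limma adjusted p = 0.289). All 3 have values near the lower end of the arrays' range, and for each the genotypes did not overlap. The neighbour of UGT76E1, UGT76E2, had a difference of -0.18 (SE 0.13), and UGT76E11 and UGT76E12 had -0.14 and -0.16.

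None of the UGT genes for ABA, auxin, cytokinin and salicylate itself that are described next passed the unadjusted limit. UGT71B6, which makes the ABA glucose ester, read 3.03 and 3.47 in wrky43-1 and 3.302 and 3.58 in Ler-0 (difference -0.20, 95% interval -0.76 to 0.37), and its other probe set gave -0.16. UGT71C5, which also makes the ABA glucose ester, read 3.186 and 2.78 in wrky43-1 and 3.25 and 2.95 in Ler-0 (difference -0.12, 95% interval -0.67 to 0.43). Both overlapped between genotypes, and these intervals do not exclude differences as large as their ends. UGT71B8 stood at 0.02 (SE 0.22).

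Among genes for salicylate conjugation, UGT74F1 read 3.49 and 3.28 in wrky43-1 and 3.55 and 3.33 in Ler-0 (difference -0.05, SE 0.15). UGT76B1, which acts on isoleucic acid, salicylate and N-hydroxypipecolic acid and dampens defence, read 5.67 and 5.17 in wrky43-1 and 5.61 and 6.01 in Ler-0. Its difference of -0.39 (SE 0.25) came with overlapping arrays. For auxin, UGT84B1, which makes the indole-3-acetic acid glucose ester, read 2.21 and 2.01 in wrky43-1 and 1.82 and 1.87 in Ler-0, apart but at very low values (difference 0.27, SE 0.13, limma adjusted p = 0.416). UGT74D1, which conjugates auxin and oxidised auxin, read 4.71 and 4.43 in wrky43-1 and 4.70 and 4.91 in Ler-0, and its probe sets gave -0.23 (SE 0.16) and -0.67 (SE 0.26). The cytokinin N-glucosyltransferase genes UGT76C1 and UGT76C2, neighbours on chromosome 5, had differences of 0.06 and -0.07, with intervals that included 0. UGT76C1 read 4.77 and 4.70 in wrky43-1 and 4.64 and 4.70 in Ler-0 (95% interval of the difference -0.25 to 0.38). UGT76C2 read 3.55 and 3.62 in wrky43-1 and 3.64 and 3.66 in Ler-0, lower in wrky43-1 without overlap (-0.38 to 0.25). Neither interval excludes differences as large as its ends.

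Flavonol glycosides of Arabidopsis are built by the UGT78D enzymes. UGT78D2, the flavonoid 3-O-glucosyltransferase gene, read 5.02 and 4.90 in wrky43-1 and 5.19 and 5.28 in Ler-0, without overlap (difference -0.27, SE 0.12, limma adjusted p = 0.38). UGT78D1, for the rhamnosyltransferase, and UGT78D3, for the arabinosyltransferase, overlapped, with differences of 0.08 (SE 0.15) and 0.03 (SE 0.29). UGT78D3 read 3.69 and 3.70 in wrky43-1 and 4.07 and 3.27 in Ler-0, a wide replicate gap in the wild type.

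The UGT72E genes serve the alcohols from which lignin is built. UGT72E2 read 2.58 and 2.76 in wrky43-1 and 2.14 and 2.42 in Ler-0 (difference 0.39, SE 0.16, limma adjusted p = 0.345), the largest positive difference among the UGT genes. UGT72E3 read 1.98 and 2.19 in wrky43-1 and 2.28 and 2.47 in Ler-0 (difference -0.29, SE 0.15), while UGT72E1 read 5.25 and 4.76 in wrky43-1 and 5.03 and 5.09 in Ler-0 (-0.06, SE 0.20). UGT72E2 and UGT72E3, which differ in sign, did not overlap between genotypes, and neither passed the unadjusted limit. Both have values near the lower end of the arrays' range. UGT72B3 read 2.21 and 3.70 in wrky43-1 and 2.93 and 3.03 in Ler-0, the widest replicate gap of all members, so its difference of -0.03 carries an SE of 0.52.

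The gene for the glucose transfer in glucosinolate synthesis, UGT74B1, read 4.85 and 4.63 in wrky43-1 and 4.75 and 4.78 in Ler-0 (difference -0.03, 95% interval -0.39 to 0.34). UGT80B1, a sterol glucosyltransferase gene needed for normal seed coats, read 6.18 and 6.07 in wrky43-1 and 6.06 and 6.31 in Ler-0 (-0.06, 95% interval -0.45 to 0.33). Neither differed beyond its replicates. The UGT85A genes, of which 4 of the 5 measured stand in a row on chromosome 1, had differences from -0.19 for UGT85A2 to 0.23 for UGT85A7, all with overlap. UGT85A4, which stands apart from that row, had 2 probe sets that disagreed in sign. The one with the higher mean read 5.43 and 5.45 in wrky43-1 and 5.33 and 5.45 in Ler-0, and the other read 4.11 and 4.67 in wrky43-1 and 4.74 and 4.66 in Ler-0, for differences of 0.05 and -0.31. Among the 10 UGT71 genes the differences ran from -0.20 to 0.29, and only UGT71B5 was free of overlap, with 4.16 and 3.87 in wrky43-1 and 3.79 and 3.66 in Ler-0 (0.29, SE 0.16). UGT87A2, a regulator of flowering time, read 7.16 and 6.58 in wrky43-1 and 6.96 and 6.91 in Ler-0, and UGT88A1 and UGT89B1 had differences of 0.07 and -0.06.

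On the side of release, BGLU18 to BGLU33 form the largest measured group, with 11 genes, 7 above 0 and 4 below, a median of 0.08 (0.0031 with array medians made equal) and 0 past the unadjusted limit. It contains close relatives of PYK10, the main beta-glucosidase of the ER body, a compartment of the endoplasmic reticulum in Brassicaceae. BGLU25 read 8.34 and 8.21 in wrky43-1 and 8.002 and 7.95 in Ler-0 (difference 0.30, SE 0.12, 95% interval -0.03 to 0.63, limma adjusted p = 0.345). BGLU19 read 8.51 and 8.46 in wrky43-1 and 8.31 and 8.10 in Ler-0 (difference 0.27, SE 0.14, limma adjusted p = 0.411). Both were free of overlap, the only BGLU genes that were so on the higher side (9.1%, against 21.7% of all named genes). With a variance prior that follows intensity both were past an unadjusted limma p of 0.05. Across the whole array, adjusted calls then rose from 1 to 74 on the higher side and from 0 to 30 on the lower side. The share of all named genes past the unadjusted limit under this prior was not worked out. The calls of BGLU19 and BGLU25 therefore cannot be set against a background. No UGT or BGLU gene passed adjusted under that prior (0 of 73). BGLU21 and BGLU22, neighbours on chromosome 1 whose enzymes split the coumarin glucoside scopolin in roots, overlapped. BGLU21 read 9.42 and 9.41 in wrky43-1 and 9.21 and 9.42 in Ler-0 (difference 0.10, SE 0.13). BGLU22 read 5.39 and 5.97 in wrky43-1 and 5.23 and 5.39 in Ler-0, the largest positive BGLU difference at 0.37 (SE 0.24), which was 0.08 without wrky43-1 replicate 2 and 0.67 without wrky43-1 replicate 1.

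BGLU33, which can release ABA from its glucose ester, read 2.50 and 2.59 in wrky43-1 and 2.62 and 2.50 in Ler-0 (difference -0.01, 95% interval -0.35 to 0.33). BGLU28, linked to glucosinolate breakdown under sulfur shortage, read 3.20 and 3.48 in wrky43-1 and 3.09 and 3.44 in Ler-0 (difference 0.08, SE 0.19). BGLU24, BGLU27, BGLU29, BGLU31 and BGLU32 had differences between -0.16 and 0.22 with overlap throughout. BGLU31 read 2.22 and 3.27 in wrky43-1 and 2.41 and 3.15 in Ler-0, so that its replicates differed far more than its genotypes.

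**Figure D3:**
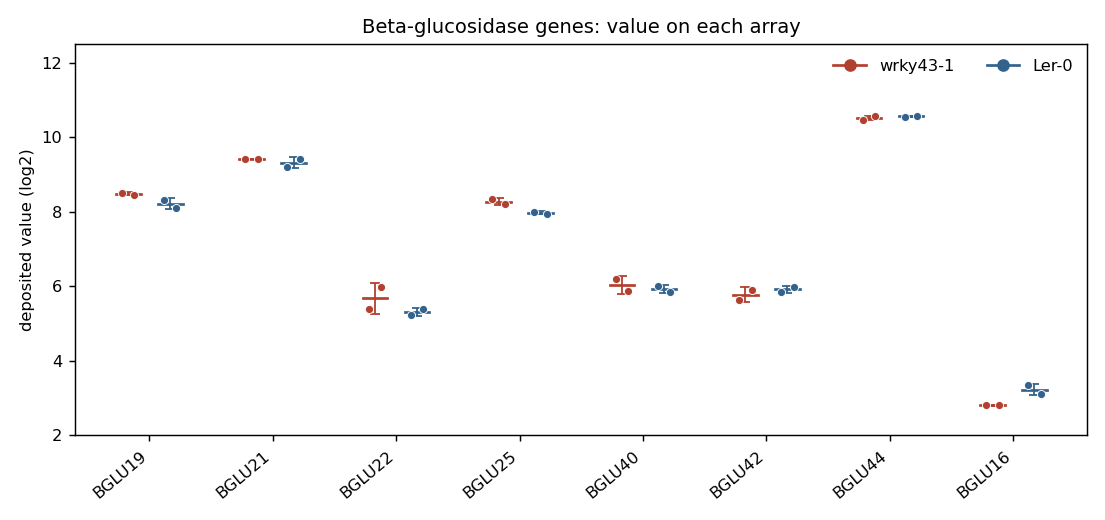
Deposited log2 value of 8 BGLU genes on each wrky43-1 array (red, left of each pair) and each Ler-0 array (blue, right), with the mean and SD (n = 2 each); the 7 genes from BGLU19 to BGLU44 are those with a mean above the median probe set. BGLU19 and BGLU25 are higher and BGLU16 is lower in wrky43-1 without overlap, and the other genes overlap.

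The remaining 11 BGLU genes had differences between -0.42 and 0.10. BGLU16 (AT3G60130, chromosome 3) read 2.82 and 2.80 in wrky43-1 and 3.34 and 3.122 in Ler-0, with no overlap and a difference of -0.42 (SE 0.14, 95% interval -0.78 to -0.06, limma adjusted p = 0.273). It had the most negative difference on the BGLU side, and its neighbour BGLU27 had -0.08 (SE 0.12). BGLU15, which acts on flavonol bisglycosides, read 3.98 and 3.38 in wrky43-1 and 4.19 and 3.42 in Ler-0 (difference -0.13, SE 0.35). BGLU36, the 1 measured gene of the range BGLU34 to BGLU39 that holds the myrosinases, read 3.03 and 2.81 in wrky43-1 and 3.11 and 2.94 in Ler-0 (difference -0.10, SE 0.15).

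BGLU45 and BGLU46, whose enzymes free the lignin precursor coniferyl alcohol from its glucoside, and BGLU47 had differences of -0.02, -0.07 and -0.10, with overlap. BGLU45 read 2.81 and 2.51 in wrky43-1 and 2.69 and 2.66 in Ler-0, and BGLU46 read 2.36 and 2.68 in wrky43-1 and 2.89 and 2.30 in Ler-0. BGLU44, a beta-mannosidase gene, read 10.47 and 10.56 in wrky43-1 and 10.55 and 10.57 in Ler-0 (difference -0.05, 95% interval -0.36 to 0.27). BGLU42, which takes part in the root's response to iron shortage and to beneficial bacteria, read 5.63 and 5.91 in wrky43-1 and 5.86 and 5.97 in Ler-0 (difference -0.14, SE 0.15). BGLU41 read 3.16 and 2.65 in wrky43-1 and 2.98 and 3.23 in Ler-0 (difference -0.20, SE 0.22), and BGLU40 and BGLU43 had 0.10 and -0.01.

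The median difference was -0.06 over the 51 UGT genes and -0.02 over the 22 BGLU genes, a gap of -0.03 between them. Below 0 were 34 UGT genes (66.7%) and 14 BGLU genes (63.6%), against 52.6% of all named genes, of which 47.4% were above 0. With array medians made equal 40 UGT genes were below 0 and 11 above, and with a trend on gene length removed 10 BGLU genes were below 0 and 12 above. Equal medians lower the difference of every gene by the same amount, and removing the trend shifts all genes by length. These counts therefore cannot be set against the 52.6% of named genes, a share taken from the values as deposited. When each gene was set to its own mean over the 4 arrays, the UGT median stood at 0.0048 and -0.08 in wrky43-1 and at -0.0024 and 0.06 in Ler-0. The BGLU median stood at -0.0090 and 0.04 in wrky43-1 and at 0.03 and -0.01 in Ler-0. UGT minus BGLU was 0.01 and -0.12 in wrky43-1 and -0.03 and 0.07 in Ler-0, so the genotypes overlapped. The genotype means of these array values differed by -0.074, close to their replicate SD of 0.084. With quantile normalization the gap of -0.03 was -0.10, and with a trend on gene length removed it was -0.07. No test was run on these medians, because the genes were chosen with earlier results of these data known.

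Level and gene length moved with the sides. The median of the 4-array mean over all probe sets was 4.34, and 21 UGT and 7 BGLU genes lay above it. In these the UGT median difference was -0.06, with 16 of 21 below 0, and the BGLU median was 0.10, with 5 of 7 above 0, a gap of -0.16. Of all 7442 named genes above that level 51.5% were below 0 and 48.5% above, with a median of -0.01. These shares were not tested against each other. The deviations of these BGLU genes were 0.06 and 0.07 in wrky43-1 and -0.03 and -0.11 in Ler-0, apart. Those of these UGT genes were 0.02 and -0.11 in wrky43-1 and -0.0038 and 0.13 in Ler-0, overlapping. These are values as deposited, with array medians of 4.43 and 4.40 in wrky43-1 and 4.34 and 4.34 in Ler-0. With array medians made equal BGLU21, the middle gene of the 7, stood at 0.03 in place of 0.10. The deviations were not worked out with equal medians. The restriction to members above the median level was chosen after seeing the data. The median gene span in the reference was 1848 bp for the UGT and 3337 bp for the BGLU genes. Among the 1544 named genes with spans of 1748 to 2001 bp, the middle range of the UGT genes, 43.3% were below 0 and the median was 0.03, and among the 1093 with spans of 3184 to 3715 bp, that of the BGLU genes, 64.2% were below 0 and the median was -0.08. The UGT share below 0, 66.7%, was above that of genes of like length, and the BGLU share, 63.6%, was near it; neither comparison was tested. The part of length in these differences was not tested.

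**Figure D4:**
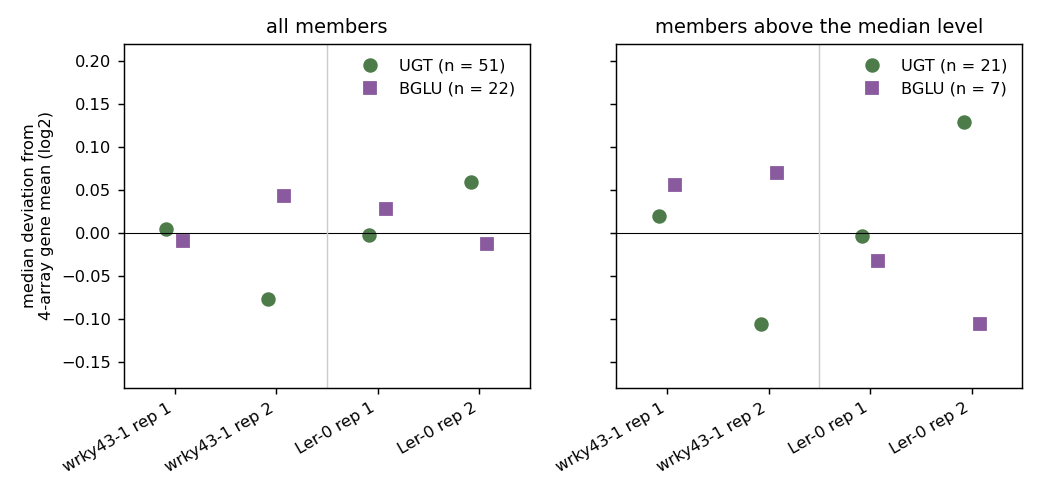
Median deviation of the UGT genes (circles) and BGLU genes (squares) from each gene's own 4-array mean, on the log2 scale, by array, for all members (left, 51 and 22 genes) and for members with a mean above the median probe set (right, 21 and 7 genes). With all members the genotypes overlap on both sides. In the right panel the BGLU squares are above 0 on both wrky43-1 arrays and below 0 on both Ler-0 arrays. Values are as deposited, and the array medians, higher in wrky43-1, were not made equal.

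Many of these genes stand in rows of relatives. With at most 2 other protein-coding genes between one member and the next, 35 UGT genes formed 14 rows and 13 BGLU genes formed 6 rows. In 9 of the 20 rows all members had the same sign. Such short rows can share a sign without any link between members, and no share for rows of other genes was worked out. The count therefore does not show that neighbours behave alike. The rows of UGT73B1 to UGT73B3 and of UGT73C1, UGT73C2 and UGT73C6 were among the 9, with ranges of -0.42 to -0.33 and of -0.67 to -0.40. The widest row was that of UGT73B5 and UGT73B4, whose differences lay 1.57 apart, against 0.02 to 0.55 in the other 19. Relatives in such rows can be alike in sequence, and how far their probes tell them apart was not tested. None of the 78 probe sets of the 73 genes had values repeated by another probe set (0), and 0 lay by number among probe sets of another chromosome.

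Relatives with other current symbols had differences between -0.20 and 0.26. PYK10, also called BGLU23, read 12.77 and 12.77 in wrky43-1 and 12.76 and 12.79 in Ler-0 (difference -0.01, SE 0.11), near the top of the arrays' range. ATA27, also called BGLU20, read 2.36 and 2.47 in wrky43-1 and 2.56 and 2.67 in Ler-0, apart, with a difference of -0.20 (SE 0.13). The sterol glucosyltransferase gene SGT (UGT80A2), the xenobiotic and monolignol glucosyltransferase gene GT72B1 (UGT72B1) and the anthocyanin xylosyltransferase gene UF3GT (UGT79B1) had differences of 0.10, -0.08 and 0.26, all with overlap.

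Of genes that work beside these enzymes few had a probe set of their own. In the list of glucosinolate breakdown and the ER body 3 of 22 were measured, PYK10 among them, with 0 passing the adjusted limit. Past the unadjusted limit was 1 of the 3, NAI1, as higher, where 5.44% of all named genes read higher. NAI1, the transcription factor that drives ER body genes including PYK10, read 6.63 and 6.92 in wrky43-1 and 6.21 and 6.41 in Ler-0, apart (difference 0.47, SE 0.16, limma adjusted p = 0.295), while NAI2, an ER body protein gene, had -0.04 (SE 0.13). Of UDP-sugar supply 1 of 37 was measured, USP, a UDP-sugar pyrophosphorylase gene, at -0.09 (SE 0.11). Of the enzymes that conjugate hormones to amino acids or sulfate 5 of 16 were measured, all GH3 genes and all below 0, between -0.22 for GH3.1 and -0.0042 for GH3.17, with 0 past the unadjusted limit. Of other glycosidases 2 of 27 were measured, BGAL16 at -0.35 (SE 0.16) and BGAL15 at 0.10 (SE 0.16). None of the 15 genes listed for ABA metabolism was measured outside the UGT and BGLU genes (0).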

How the data were processed

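RNA of 4 seed samples was hybridised to 1 array each. The deposited series table was used, with values for 38408 probe sets; the scale, read as log2 from the range, is unstated. How the authors normalized the deposited log2 values and summarised probes is not stated in the labels used here; no detection calls were used. Gene names came from the platform annotation, updated to TAIR10.1 (16722 probe sets with 1 gene, 759 with several, 20927 with none). A gene was represented by its probe set of highest 4-array mean. Array medians differed by 0.088, so values were kept as deposited. limma 3.58.1 in R 4.3.3 was fitted over all probe sets (lmFit, eBayes, 2 residual and 2.34 prior degrees of freedom), two-sided, and tested on simulated data. The number of arrays limits the precision. Same-numbered replicates did not deviate together (correlation -0.03). The members and lists were chosen with earlier results of these data known. Every member may be named; array values are given for members past an unadjusted p of 0.05 without overlap, extremes, neighbours and members of known substrate. Alternatives covered scaling, filters, variance prior, array weights, the block, single arrays, probe set choice and gene length. Chromosome, gene order and gene span came from the reference annotation. Sequences and promoter motifs were not used here.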

Additional observations from a re-analysis of the deposited data

How the results depend on the processing

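In the 14 alternatives that gave adjusted p-values no tested UGT or BGLU gene passed (0; 41 and 28 of the 73 genes were tested under the filters; lowest adjusted p 0.0512, UGT73B4 with an intensity trend), and of the 8 genes past an unadjusted p of 0.05 none changed sign (0). Those 8 genes could not change sign without single arrays, as their genotypes did not overlap. The replicate block, variance priors, array weights and filters left every difference as it was, so the unchanged signs say little. With quantile normalization 8 members changed sign and with the arrays centred 6, none of them beyond a size of 0.066. Without single arrays 9 to 16 changed sign, with sizes up to 0.24. No label ties the replicate numbers to a shared batch; with the replicate number as a block, 0 probe sets were called higher in place of 1, 4 UGT genes were past the unadjusted limit as lower in place of 6 and 0 as higher in place of 1, and 0 BGLU genes were lower in place of 1. Probe sets called higher numbered 2 with centring, 74 with the trend (30 lower in place of 0), 6 without the lowest 50 percent and 0 to 0 without single arrays. Higher UGT genes at the unadjusted limit numbered 0 with centring, 0 without the lowest 30 or 50 percent, 0 among members above the median level, 0 at p under 0.01, 2 without repeated and other-chromosome probe sets, 4 by non-overlap and 0 to 1 without single arrays. Lower UGT genes numbered 3 with the trend, 3 without the lowest 30 or 50 percent, 3 above the median level, 1 at p under 0.01, 13 by non-overlap and 2 to 4 without single arrays. Higher BGLU genes numbered 2 with the trend, 1 without the lowest 50 percent, 1 with the length trend removed, 2 by non-overlap and 0 to 1 without single arrays. Lower BGLU genes numbered 0 with the trend, 0 without the lowest 30 or 50 percent, 0 above the median level, 0 at p under 0.01 and 0 to 1 without single arrays. By non-overlap 7.8% of UGT genes were higher and 25.5% lower, and 9.1% of BGLU genes were higher and 4.5% lower. Over all named genes these shares were 21.7% and 25%. The UGT median was -0.12 with quantile normalization, -0.13 with centring and -0.10 to -0.04 without single arrays. The BGLU median was -0.10 with centring, 0.10 under both filters on low probe sets and above the median level, 0.010 with the length trend removed and -0.052 to 0.034 without single arrays. It was above 0 without wrky43-1 replicate 1 (0.034) and without wrky43-1 replicate 2 (0.032), so its sign rests on single arrays. The gap between the sides, -0.03 as reported, was -0.10 with quantile normalization, -0.07 with the length trend removed, -0.16 without the lowest 30 or 50 percent or above the median level and -0.14 to -0.0037 without single arrays, where it was -0.14 without wrky43-1 replicate 1. UGT73C6 stood at -0.25 as the median of its probe sets. The filters test fewer genes; elsewhere the cause was not tested. The level restriction and the leaving out of UGT73B4 (5 lower UGT genes) were chosen after seeing the data. Promoter motifs were not run, as no sequences were used. Fits without an array have 1 residual degree of freedom and assume that the lone array varies like the other group. Signal over background is unknown, and 45 of the 73 genes lie at or below the median level.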
